A study of Felis catus with 25 samples.

Results

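The mitochondrial carriers of the solute carrier family 25 (SLC25) and the uncoupling proteins (UCP) were described in cultured corneal fibroblasts of the domestic cat. Members were all rows of the gene count tables whose symbol is SLC25A with a number or UCP with a number, a rule that uses no measured level. The rule found 42 of 13949 gene symbols, of which 40 were SLC25A genes and 2 were UCP1 and UCP2. Of these, 35 passed the filter on low counts and were tested among 10699 genes. Polyadenylated RNA was sequenced from 25 libraries in 5 groups of 5. Fibroblasts of the FB group were untreated and taken at day 0. TGFb held cells that had received transforming growth factor beta 1 (TGFb1) at 1 ng/ml for 2 days, which turns fibroblasts into contractile myofibroblasts. The other groups shared this TGFb1 treatment, which ended at day 2, and then received a drug for 3 days until harvest at day 5. In Trog the drug was troglitazone at 7.5 uM, which activates the nuclear receptor PPAR-gamma. In TrogGW troglitazone at that dose was combined with GW9662 at 10 uM, which blocks this receptor. In UK it was UK-5099 at 30 uM, an inhibitor of the mitochondrial pyruvate carrier. No library of untreated cells at day 2, of drug-free cells at day 5 or of GW9662 alone was analysed here, so the drug, the added days and the end of TGFb1 treatment cannot be told apart. The series' design text calls the replicates independent, but the labels name neither donors nor cultures, so p-values measure the spread between these libraries.

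Mitochondrial carriers are small proteins of the inner mitochondrial membrane that exchange a solute of the matrix for a solute of the cytosol. They carry the ADP, ATP and phosphate of respiration, the malate, aspartate and glutamate that move reducing equivalents, acylcarnitines for fatty acid oxidation, and cofactors, nucleotides, iron and glutathione. Uncoupling proteins belong to the same family. UCP1 lets protons back into the matrix in brown fat, whereas UCP2 is found in many tissues and is linked to the choice of fuel. The pyruvate carrier that UK-5099 blocks is formed by unrelated proteins and is no member of the family.

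Libraries held 14.8 to 25.2 M counts. Levels are in CPM, a gene's count as a share of the TMM-scaled library total put on the usual scale of 1000000 counts, which allow a gene to be compared between libraries but not with another gene, because they are not divided by length. UK replicate 5 stood apart: across genes its correlation with the other UK libraries was 0.852 to 0.868, against at least 0.988 within every other pair of a group. UK fold changes are therefore given with and without it, and library values are listed in the order of replicate number, so that the last UK value is that of replicate 5. The summed level of the stromal fibroblast and keratocyte markers was 75500 CPM in FB, 3660 CPM in Trog, 1600 CPM in TrogGW and 113000 CPM in UK. COL1A1 and COL1A2 together made up most of it in every group. COL1A1 stood at 61400 CPM in TGFb, 1130 CPM in Trog and 815 CPM in TrogGW. COL3A1 of that list was also low in both troglitazone groups, at 278 CPM in FB, 240 CPM in TGFb, 1.51 CPM in Trog, 0.195 CPM in TrogGW and 222 CPM in UK. In the same order of groups, decorin (DCN) stood at 368, 583, 579, 218 and 1150 CPM and lumican (LUM) at 189, 859, 243, 64.8 and 3670 CPM. PDGFRB stood at 176, 107, 387, 176 and 179 CPM. LUM was thus also lower in Trog and TrogGW than in TGFb, while DCN in Trog was near its TGFb level and PDGFRB was above it in both. The UK means include replicate 5. The summed myofibroblast markers were at 9680 CPM in TGFb, 293 CPM in Trog, 19.7 CPM in TrogGW and 3550 CPM in UK. Of the markers of other cells, KRT3 and KRT12 of the corneal epithelium and PTPRC of immune cells were at 0 in every group, but others of these lists were present. Over the groups the summed levels spanned 1.4 to 9.25 CPM for the corneal epithelium (EPCAM at 9.24 CPM in FB and 1.75 CPM in Trog), 12.1 to 35.2 CPM for immune cells (CD68 at 10.8 CPM in FB and 25.8 CPM in Trog) and 7.67 to 49.8 CPM for the vascular endothelium (KDR at 7.23 CPM in TGFb and 47 CPM in TrogGW). Of the corneal endothelium markers, CDH2 stood at 742 CPM in FB, 1250 CPM in TGFb, 270 CPM in Trog, 107 CPM in TrogGW and 695 CPM in UK, and TJP1 at 403, 396, 289, 240 and 217 CPM. The part of these marker shifts in the results below was not tested, and in such bulk RNA fewer cells of a type and less RNA per cell cannot be told apart. Of the 42 members, 20 overlap another gene in the RefSeq annotation, among them SLC25A12 (HAT1 and METAP1D), SLC25A32 (DCAF13 and CTHRC1), SLC25A40 (RUNDC3B), SLC25A26 (LRIG1), SLC25A14 (RBMX2 and GPR119) and SLC25A29 (SLC25A47). The strand setting of the counting was not given in the sources used here, so the counts of these members may include reads of the overlapping gene.

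A gene is said to rise or fall where edgeR's quasi-likelihood test gave an adjusted p under 0.05. With TGFb1, 5 members rose and 10 fell, or 42.9% of the 35 tested, while 38.2% of all tested genes were called. Their median log2 fold change was -0.09, and that of all genes -0.02. After troglitazone, 13 members rose and 12 fell against TGFb, which is 71.4% beside 62.6% of all genes. With GW9662 added, 13 rose and 9 fell against TGFb, which is 62.9% beside 69.4% of all genes. After UK-5099, 4 rose and 13 fell against TGFb, which is 48.6% beside 50.5% of all genes, and falls made up 37.1% of members beside 22.5% of all genes. A share by direction was computed for this comparison with all libraries only, and the count of falls depended on the scaling described below. These 3 drug comparisons share the TGFb libraries. Between the drugs, 7 members rose and 10 fell in TrogGW against Trog (43.2% of all genes were called), and 7 rose and 15 fell in UK against Trog (61.1% of all genes). Without UK replicate 5 the calls became 8 higher and 16 lower of 36 tested members with TGFb1, 19 and 13 in Trog, 17 and 12 in TrogGW, and 7 and 18 in UK, each against TGFb. The shares of all genes then called were 66%, 81%, 85.9% and 70.9%. Without that library, TrogGW against Trog gave 13 higher and 14 lower (71.6% of all genes), and UK against Trog 10 higher and 19 lower (75.1%).

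The direction of these counts depended on the scaling. With library totals alone in place of TMM factors, the median of all genes moved by -0.37 on the log2 scale in TGFb against FB, by 0.68, 0.85 and 0.23 in Trog, TrogGW and UK against TGFb, by 0.17 in TrogGW against Trog and by -0.46 in UK against Trog. Fold changes below are relative to the TMM scale. On library totals alone, 2 members rose and 21 fell with TGFb1. The same scaling gave 22 higher and 5 lower in Trog, 25 and 4 in TrogGW and 13 and 12 in UK, each against TGFb. It gave 10 and 7 in TrogGW against Trog and 4 and 22 in UK against Trog. Leaving out UK replicate 5 as well, a setting chosen after seeing the data, library totals alone gave 4 higher and 25 lower with TGFb1, 27 and 6 in Trog, 29 and 6 in TrogGW and 16 and 14 in UK, each against TGFb, 15 and 10 in TrogGW against Trog and 3 and 24 in UK against Trog. The shares of all genes called on library totals alone were not computed, here or below. Counts on that scale hold the shift of all genes given above and are no result about the members alone. Calls described below whose direction turned with this scaling are marked beside their values.

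**Figure D1:**
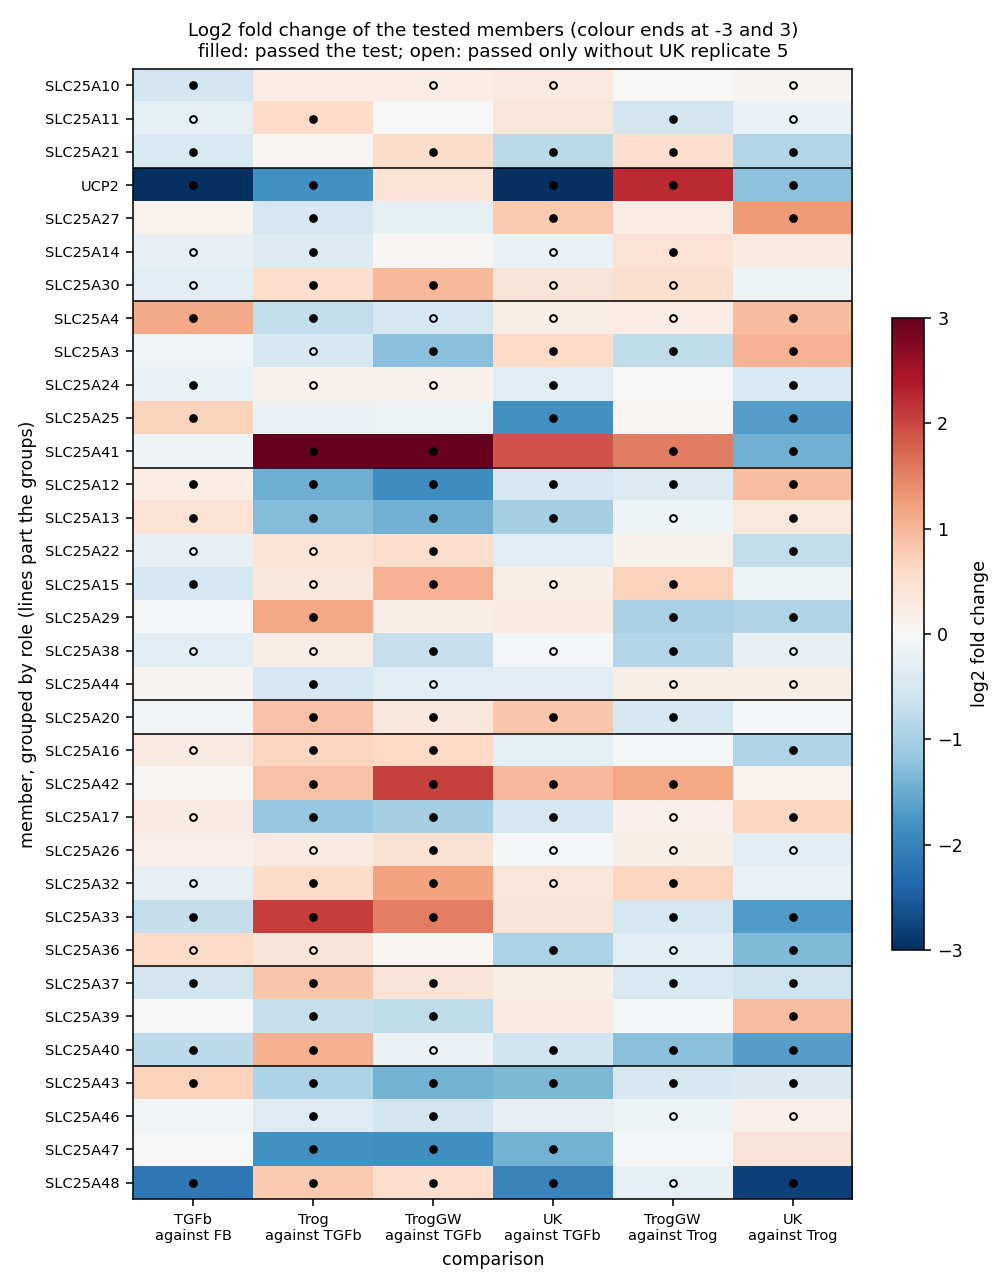
Log2 fold changes (colour scale, ending at -3 and 3) of 34 of the 35 tested members (rows, grouped by role) in 6 comparisons (columns). A filled dot marks a call with all 25 libraries and an open dot a call only without UK replicate 5. UCP2 is deep blue in TGFb against FB and in UK against TGFb, and SLC25A33 is red in Trog and TrogGW against TGFb.

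Of the uncoupling proteins, UCP2 had the widest span of all tested members. The ratio between its mean in FB and in UK was 156-fold (227-fold without UK replicate 5). For the rare SLC25A41 the ratio of summed levels in TrogGW to TGFb was 34.9, with a 95% counting interval of 11.8 to 171. UCP2 stood at 17.3, 19.0, 21.8, 17.8 and 19.2 CPM in FB and at 0.485, 0.487, 1.52, 1.27 and 1.06 CPM in TGFb. It stood at 0.258, 0.346, 0.284, 0.261 and 0.184 CPM in Trog and at 1.11, 1.30, 1.32, 1.53 and 1.14 CPM in TrogGW. The UK libraries stood at 0.0547, 0.049, 0.0514, 0.181 and 0.274 CPM. Every FB library was above every library of the other groups, and the TrogGW libraries lay within or just above the TGFb range. The counts behind these levels fell from 290, 378, 417, 416 and 350 in FB to 1, 1, 1, 4 and 3 in UK, so the UK level rests on 10 reads in all. UCP2 fell with TGFb1 by a log2 fold change of -4.30 ± 0.23 (SE, edgeR adjusted p = 4.73e-13), a ratio of summed levels of 19.8 with a 95% counting interval of 15.8 to 25.2. It fell again in Trog against TGFb (log2 fold change -1.82 ± 0.31 SE, edgeR adjusted p = 1.74e-05). TrogGW and TGFb were not called different, at 0.41 ± 0.25 (SE, edgeR adjusted p = 0.14), but library totals alone gave 1.26 (edgeR adjusted p = 5.74e-05) and leaving out TGFb replicate 3 gave 0.65 (edgeR adjusted p = 0.0264). UCP2 was higher with GW9662 than with troglitazone alone, at 2.23 ± 0.28 (SE, edgeR adjusted p = 6.72e-07), and the groups did not overlap. In UK against TGFb its change was -3.06 ± 0.39 (SE, edgeR adjusted p = 5.52e-07) with all UK libraries and -3.38 ± 0.44 (adjusted p = 6.74e-08) without replicate 5, and the ratio of summed levels in TGFb to UK was 8.77 with a 95% counting interval of 4.52 to 19 (11 and 5.1 to 28.3 without replicate 5). UK overlapped Trog only through replicate 5, since UK replicates 1 to 4 lay under every Trog library. The difference between UK and Trog of -1.24 ± 0.46 (SE, edgeR adjusted p = 0.0225) with all UK libraries and -1.56 ± 0.54 (adjusted p = 0.011) without replicate 5 lost its call when any of Trog replicate 2 and UK replicates 1, 2 and 3 was left out (edgeR adjusted p 0.0525 to 0.0661).

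**Figure D2:**
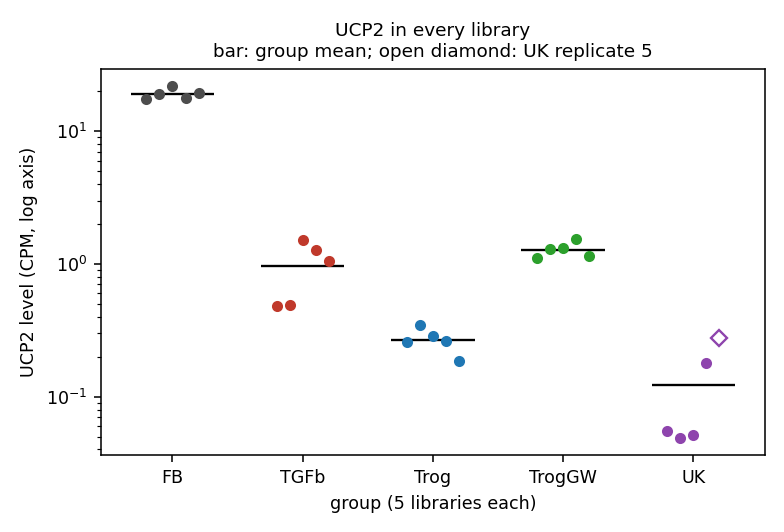
UCP2 level in CPM on a log axis for each of the 25 libraries (points), by group, with the group mean as a bar and UK replicate 5 as an open diamond. FB lies between 17.3 and 21.8 CPM, TrogGW between 1.11 and 1.53 CPM, and UK between 0.049 and 0.275 CPM.

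Relative to FB, UCP2 remained lower in every drug group, with log2 fold changes of -6.11 ± 0.26 (SE, edgeR adjusted p = 1.31e-15) in Trog and -3.89 ± 0.21 (SE, edgeR adjusted p = 9.42e-14) in TrogGW. In UK the difference from FB was -7.36 ± 0.30 (SE, edgeR adjusted p = 1.19e-15) with all UK libraries and -7.68 ± 0.26 (adjusted p = 2.7e-21) without replicate 5. UCP1, the proton carrier of brown fat, had 6 reads in all 25 libraries, 5 of them in TrogGW, and was not tested. The close relatives of the uncoupling proteins took other courses. SLC25A14, also named UCP5, fell in Trog against TGFb on the TMM scale, at -0.41 ± 0.16 (SE, edgeR adjusted p = 0.0313), while library totals alone gave 0.27 (edgeR adjusted p = 0.0703), and the call was lost when any of TGFb replicates 3 and 4 and Trog replicates 1 and 4 was left out (edgeR adjusted p 0.0525 to 0.0695). SLC25A14 was higher in TrogGW, at 20 ± 0.884 CPM, than in Trog, at 14.7 ± 0.437 CPM (SD, n = 5), a difference of 0.44 ± 0.16 (SE, edgeR adjusted p = 0.0305) that lost its call when any of Trog replicates 1 to 4 or TrogGW replicates 4 and 5 was left out (edgeR adjusted p 0.0521 to 0.0622). SLC25A27, also named UCP4, was the member of this class that rose in UK with all libraries, from 1.95 ± 0.396 CPM in TGFb to 3.37 ± 0.523 CPM in UK, a change of 0.79 ± 0.17 (SE, edgeR adjusted p = 0.000388) with all UK libraries and 0.77 ± 0.18 (adjusted p = 0.000327) without replicate 5. Its fall in Trog of -0.49 ± 0.17 (SE, edgeR adjusted p = 0.0176) turned to 0.19 (edgeR adjusted p = 0.343) with library totals alone and lost its call without TGFb replicate 4 or Trog replicate 2 (edgeR adjusted p 0.0555 and 0.0599).

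SLC25A30, the kidney mitochondrial carrier protein, stood at 21.9, 19.6, 21.3, 20.9 and 19.4 CPM in FB and at 15, 15.6, 16.4, 17.0 and 18.1 CPM in TGFb. It stood at 21.6, 22.4, 27.0, 23.6 and 23.1 CPM in Trog and at 30.8, 35.0, 34.8, 33.4 and 30.9 CPM in TrogGW. UK stood at 25.9, 26.5, 25.7, 22.0 and 6.31 CPM. TrogGW held the highest values, with no overlap with any other group, and UK replicate 5 lay far under the other UK libraries. SLC25A30 rose against TGFb in Trog (log2 fold change 0.52 ± 0.21 SE, edgeR adjusted p = 0.0352) and in TrogGW (log2 fold change 1.01 ± 0.21 SE, edgeR adjusted p = 0.00019). The call in Trog was lost with limma voom (0.52, adjusted p = 0.058) and when any of 7 libraries was left out, namely TGFb replicates 1 to 4 and Trog replicates 3 to 5 (edgeR adjusted p 0.0507 to 0.0792). The difference between TrogGW and Trog was not called with all libraries, at 0.49 ± 0.21 (SE, edgeR adjusted p = 0.0625), and was called without UK replicate 5, at 0.48 ± 0.065 (SE, edgeR adjusted p = 1.45e-07). In UK against TGFb the difference was 0.38 ± 0.21 (SE, edgeR adjusted p = 0.137) with all UK libraries and 0.61 ± 0.075 (adjusted p = 2.38e-08) without replicate 5, so that only the smaller set gave a call.

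Among carriers of ADP, ATP and phosphate, SLC25A4 rose with TGFb1. SLC25A4, the ADP/ATP carrier ANT1 best known in heart and muscle, stood at 116, 121, 115, 110.0 and 109 CPM in FB and at 239.7, 258, 252, 255 and 246 CPM in TGFb. It stood at 139, 163, 163, 137 and 144 CPM in Trog and at 137, 182, 188, 185 and 176 CPM in TrogGW. Its UK levels were 176, 188, 176, 166 and 729.5 CPM. The TGFb libraries were all above those of FB, Trog and TrogGW, and UK replicate 5 was higher than every other library. SLC25A4 rose with TGFb1 (log2 fold change 1.13 ± 0.28 SE, edgeR adjusted p = 0.00278). It fell in Trog against TGFb (log2 fold change -0.74 ± 0.28 SE, edgeR adjusted p = 0.0257), a call lost with library totals alone (-0.06, edgeR adjusted p = 0.83) and without Trog replicate 4 (edgeR adjusted p = 0.0507). Its difference in TrogGW against TGFb of -0.53 ± 0.28 (SE, edgeR adjusted p = 0.102) was called only without UK replicate 5, at -0.53 ± 0.065 (SE, edgeR adjusted p = 1.28e-08), and turned to 0.33 (edgeR adjusted p = 0.000151) with library totals alone over the same 24 libraries. In UK against TGFb that library decided the sign: the change was 0.20 ± 0.28 (SE, edgeR adjusted p = 0.585) with all UK libraries and -0.50 ± 0.07 (adjusted p = 2.38e-07) without replicate 5. UK against Trog gave 0.94 ± 0.28 (SE, edgeR adjusted p = 0.00635) with all UK libraries and 0.24 ± 0.069 (adjusted p = 0.00246) without replicate 5, and the call with all libraries was lost with library totals alone (0.40, edgeR adjusted p = 0.155) and with a fit of only the 2 groups (0.93, edgeR adjusted p = 0.0928). Without replicate 5, library totals alone turned it to -0.16 (edgeR adjusted p = 0.0651). Against FB, SLC25A4 was higher in UK (log2 fold change 1.33 ± 0.29 SE, edgeR adjusted p = 0.00037, and without replicate 5 0.63 ± 0.07 SE, adjusted p = 2.22e-09). The other ADP/ATP carriers of the body's tissues, SLC25A5 and SLC25A6, were not analysed here, and reads of such close copies may be shared with SLC25A4.

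SLC25A3, the phosphate carrier that supplies ATP synthase, stood at 767, 757, 754, 699 and 764 CPM in FB and at 673, 697, 682, 784 and 713 CPM in TGFb. It stood at 503, 507, 549.9, 473 and 519 CPM in Trog and at 324, 305, 285, 277 and 306 CPM in TrogGW. UK lay at 834, 759, 716, 663 and 2313 CPM. FB and TGFb overlapped, Trog lay under both, and TrogGW lay under every library of the other groups. SLC25A3 did not pass the test in TGFb against FB, at -0.08 ± 0.22 (SE, edgeR adjusted p = 0.829). It fell in TrogGW against TGFb (log2 fold change -1.25 ± 0.23 SE, edgeR adjusted p = 3.8e-05), although library totals alone gave -0.40 (edgeR adjusted p = 0.055), and against Trog (log2 fold change -0.77 ± 0.23 SE, edgeR adjusted p = 0.00774). Trog against TGFb passed only without UK replicate 5, at -0.48 ± 0.061 (SE, edgeR adjusted p = 3.04e-08), and turned to 0.21 (edgeR adjusted p = 0.00399) with library totals alone over the same 24 libraries. The rise in UK against TGFb rested on UK replicate 5, with 0.57 ± 0.23 (SE, edgeR adjusted p = 0.0369) with all UK libraries and 0.07 ± 0.065 (adjusted p = 0.356) without replicate 5. It was also lost with the replicate number as a block, at 0.47 (edgeR adjusted p = 0.075), with limma voom (0.41, adjusted p = 0.113), with a fit of only the 2 groups (0.58, edgeR adjusted p = 0.217) and without any of TGFb replicates 1, 2, 3 and 5 (edgeR adjusted p 0.0595 to 0.068). UK against Trog was called in both sets, with 1.05 ± 0.23 (SE, edgeR adjusted p = 0.000346) with all UK libraries and 0.54 ± 0.064 (adjusted p = 8.39e-09) without replicate 5, although library totals alone without replicate 5 gave 0.14 (edgeR adjusted p = 0.061). Relative to FB, SLC25A3 was lower in TrogGW (log2 fold change -1.32 ± 0.23 SE, edgeR adjusted p = 1.88e-05).

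The ATP-Mg/phosphate carriers, which set the adenine nucleotide content of the matrix, differed in their course. SLC25A25 stood at 17.7, 18.3, 19.2, 18.5 and 18.1 CPM in FB and at 32, 26.7, 28.6, 26.2 and 32.4 CPM in TGFb. It stood at 24.9, 29.8, 25.2, 26.9 and 23.3 CPM in Trog and at 33.5, 26.3, 24.7, 19.4 and 28.4 CPM in TrogGW. The UK libraries stood at 6.84, 8.97, 8.02, 13.9 and 2.74 CPM. The TGFb, Trog and TrogGW ranges overlapped above FB, and every UK library was under every library of the other groups. SLC25A25 rose with TGFb1 (log2 fold change 0.67 ± 0.22 SE, edgeR adjusted p = 0.0183), but library totals alone gave 0.29 (edgeR adjusted p = 0.3). It fell in UK against TGFb (log2 fold change -1.83 ± 0.23 SE, edgeR adjusted p = 4.29e-07, and without replicate 5 -1.61 ± 0.14 SE, adjusted p = 3.78e-11) and against Trog (log2 fold change -1.66 ± 0.23 SE, edgeR adjusted p = 1.08e-06, and without replicate 5 -1.45 ± 0.14 SE, adjusted p = 1.97e-10). SLC25A24 moved less, from 47.7 ± 2.98 CPM in TGFb to 38.1 ± 2.67 CPM in UK, or -0.32 ± 0.065 (SE, edgeR adjusted p = 0.000194) with all UK libraries and -0.29 ± 0.054 (adjusted p = 1.79e-05) without replicate 5, while library totals alone gave -0.09 (edgeR adjusted p = 0.368). SLC25A41 was rare, with 4 reads in FB, 3 in TGFb, 53 in Trog, 171 in TrogGW and 14 in UK, which makes its ratio of summed levels in TrogGW to TGFb 34.9 with a 95% counting interval of 11.8 to 171. For Trog against TGFb that ratio was 11.6 (3.75 to 57.8), and for TrogGW against Trog it was 3.02 (2.21 to 4.2). SLC25A41 rose in both troglitazone groups against TGFb (edgeR adjusted p = 0.000264 and 1.09e-07). Only in TrogGW did every library hold at least 10 reads, with 22 to 54 there and 5 to 14 in Trog. It thus passed the filter only through the group where it was highest, so these p-values are no independent support for its rise. SLC25A31, the ADP/ATP carrier of the testis, had 2 reads, both in UK.

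Both aspartate-glutamate carriers of the malate-aspartate shuttle, which brings reducing equivalents of NADH into the matrix, had their highest group mean in TGFb and their lowest in TrogGW. SLC25A12 (aralar) stood at 65.1, 73.8, 67.3, 72.5 and 69.2 CPM in FB and at 87.0, 80.8, 79.5, 79.6 and 79.8 CPM in TGFb. It stood at 29.3, 28.5, 32.7, 29.4 and 28.5 CPM in Trog and at 23.1, 23.1, 24.6, 20.9 and 20.2 CPM in TrogGW. UK stood at 58.0, 50, 51.1, 56.5 and 67.6 CPM. No TGFb library overlapped any other group, and the Trog and TrogGW libraries lay under all others. With TGFb1 SLC25A12 rose on the TMM scale (log2 fold change 0.23 ± 0.08 SE, edgeR adjusted p = 0.0279), while library totals alone gave -0.15 (edgeR adjusted p = 0.0647). That call was also lost with the replicate number as a block (0.22, edgeR adjusted p = 0.0501) and when any of FB replicates 1, 3 and 5 and TGFb replicate 1 was left out (edgeR adjusted p 0.0505 to 0.0735). It fell in Trog (log2 fold change -1.46 ± 0.081 SE, edgeR adjusted p = 2e-13) and in TrogGW against TGFb (log2 fold change -1.86 ± 0.082 SE, edgeR adjusted p = 1.81e-15), and in TrogGW against Trog (log2 fold change -0.41 ± 0.08 SE, edgeR adjusted p = 0.000198). In UK it fell against TGFb (log2 fold change -0.52 ± 0.08 SE, edgeR adjusted p = 7.44e-06, and without replicate 5 -0.59 ± 0.06 SE, adjusted p = 4.65e-10). It was nonetheless higher in UK than in Trog (log2 fold change 0.93 ± 0.08 SE, edgeR adjusted p = 6.68e-10, and without replicate 5 0.86 ± 0.061 SE, adjusted p = 9.46e-14). Relative to FB, SLC25A12 was lower in Trog (log2 fold change -1.23 ± 0.081 SE, edgeR adjusted p = 3.97e-12) and in TrogGW (log2 fold change -1.64 ± 0.082 SE, edgeR adjusted p = 2.07e-14).

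SLC25A13 (citrin) had the same order of group means. It stood at 74.2, 66.8, 72.4, 68.7 and 69.4 CPM in FB and at 91.6, 89.8, 94.2, 98.8 and 98.8 CPM in TGFb. SLC25A13 stood at 36.9, 38.3, 37.8, 38.5 and 40.0 CPM in Trog and at 38.1, 35.6, 35.0, 33.5 and 31.9 CPM in TrogGW. Its UK levels were 52.4, 42.9, 50.2, 48.8 and 42.9 CPM. All UK libraries lay between the Trog and the FB ranges, and replicate 5 was within the range of the others. SLC25A13 rose with TGFb1 (log2 fold change 0.43 ± 0.068 SE, edgeR adjusted p = 1.86e-05), and library totals alone gave 0.06 (edgeR adjusted p = 0.589). It fell in Trog (log2 fold change -1.30 ± 0.069 SE, edgeR adjusted p = 8.31e-14), in TrogGW (log2 fold change -1.44 ± 0.07 SE, edgeR adjusted p = 8.97e-15) and in UK (log2 fold change -1.0 ± 0.069 SE, edgeR adjusted p = 2.74e-11, and without replicate 5 -0.96 ± 0.057 SE, adjusted p = 2.59e-15), each against TGFb. The difference between TrogGW and Trog was -0.14 ± 0.068 (SE, edgeR adjusted p = 0.112). UK against Trog gave 0.31 ± 0.068 (SE, edgeR adjusted p = 0.000455) with all UK libraries and 0.34 ± 0.057 (adjusted p = 3.14e-06) without replicate 5 on the TMM scale and -0.14 (edgeR adjusted p = 0.129) with library totals alone.

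Among carriers of di- and tricarboxylic acids, SLC25A10, the dicarboxylate carrier, fell with TGFb1 from 10.1 ± 0.665 CPM to 6.83 ± 0.356 CPM, or -0.57 ± 0.18 (SE, edgeR adjusted p = 0.0122). SLC25A11, the oxoglutarate carrier that works with the aspartate-glutamate carriers, was highest in Trog at 117 ± 12.0 CPM and stood at 78.9 ± 5.77 CPM in TGFb, a rise of 0.57 ± 0.20 (SE, edgeR adjusted p = 0.0159). With GW9662 added it was lower than with troglitazone alone (log2 fold change -0.55 ± 0.20 SE, edgeR adjusted p = 0.0268), a call lost with library totals alone (-0.38, edgeR adjusted p = 0.0613) and without TrogGW replicate 2 or Trog replicate 2 (edgeR adjusted p 0.0508 and 0.0613). SLC25A21, the oxodicarboxylate carrier of lysine breakdown, stood at 5.79 ± 0.769 CPM in FB, 4.23 ± 0.432 CPM in TGFb, 4.41 ± 0.449 CPM in Trog and 6.25 ± 0.729 CPM in TrogGW. Its UK libraries were at 2.08, 2.16, 2.01, 1.94 and 4.21 CPM, so that replicate 5 alone reached the range of the other groups. SLC25A21 rose in TrogGW against Trog (log2 fold change 0.50 ± 0.15 SE, edgeR adjusted p = 0.00973) and fell in UK against TGFb (log2 fold change -0.82 ± 0.17 SE, edgeR adjusted p = 0.000293, and without replicate 5 -1.05 ± 0.14 SE, adjusted p = 1.1e-07). The citrate carrier SLC25A1 was not analysed here.

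Of the 7 amino acid carriers tested, SLC25A29 was highest in Trog. SLC25A29, a carrier of basic amino acids, stood at 9.91, 9.92, 13.1, 11.0 and 11.4 CPM in FB and at 10.4, 11.4, 10.2, 11.3 and 10.9 CPM in TGFb. It stood at 20.6, 27.3, 24.9, 22.7 and 25 CPM in Trog and at 12.5, 11.3, 14.5, 11.5 and 12.1 CPM in TrogGW. UK lay at 11.4, 12.8, 11.1, 13.1 and 16.4 CPM. Every Trog library was above every other library, and the other groups overlapped. SLC25A29 rose in Trog against TGFb (log2 fold change 1.15 ± 0.11 SE, edgeR adjusted p = 2.28e-09) and against FB (log2 fold change 1.12 ± 0.11 SE, edgeR adjusted p = 3.63e-09). TrogGW against TGFb was not called, at 0.19 ± 0.11 (SE, edgeR adjusted p = 0.119), and TrogGW was lower than Trog (log2 fold change -0.96 ± 0.11 SE, edgeR adjusted p = 1.13e-07). UK was lower than Trog (log2 fold change -0.90 ± 0.11 SE, edgeR adjusted p = 1.57e-07, and without replicate 5 -0.99 ± 0.09 SE, adjusted p = 3.84e-11). SLC25A47, a liver carrier whose span overlaps that of SLC25A29, went the other way, from 2.24 ± 0.139 CPM in TGFb to 0.636 ± 0.11 CPM in Trog, 0.621 ± 0.182 CPM in TrogGW and 0.91 ± 0.69 CPM in UK (0.611 ± 0.199 CPM without replicate 5).

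SLC25A15, the ornithine carrier of the urea cycle, stood at 10.5, 8.41, 7.63, 5.81 and 8.19 CPM in FB and at 4.67, 5.90, 6.09, 4.63 and 6.59 CPM in TGFb. It stood at 6.19, 6.62, 6.70, 7.46 and 8.48 CPM in Trog and at 10.5, 12.5, 11.3, 12.0 and 10.9 CPM in TrogGW. The UK libraries stood at 7.44, 6.47, 7.35, 6.63 and 3.57 CPM. TrogGW was above all other groups without overlap. SLC25A15 rose in TrogGW against TGFb (log2 fold change 1.03 ± 0.16 SE, edgeR adjusted p = 5.68e-06) and against Trog (log2 fold change 0.69 ± 0.16 SE, edgeR adjusted p = 0.00101). It fell with TGFb1 (log2 fold change -0.53 ± 0.17 SE, edgeR adjusted p = 0.0129), although FB and TGFb overlapped and the call was lost without FB replicate 1 (-0.42, edgeR adjusted p = 0.0531). SLC25A22, a glutamate carrier, rose in TrogGW against TGFb, from 15.2 ± 1.0 CPM to 22.0 ± 1.32 CPM, or 0.54 ± 0.23 (SE, edgeR adjusted p = 0.0392), a call lost with limma voom (adjusted p = 0.0576), with RLE factors (edgeR adjusted p = 0.0507), with the replicate number as a block (edgeR adjusted p = 0.054) and when any TGFb or TrogGW library was left out (edgeR adjusted p 0.0519 to 0.0811). SLC25A38, the glycine carrier of haem synthesis, was lowest in TrogGW at 17.9 ± 0.895 CPM and stood at 28.8 ± 1.48 CPM in TGFb and 32.7 ± 3.09 CPM in Trog. SLC25A38 was lower in TrogGW than in Trog (log2 fold change -0.87 ± 0.15 SE, edgeR adjusted p = 3.73e-05), and its difference from TGFb of -0.69 ± 0.15 (SE, edgeR adjusted p = 0.000251) became 0.16 (edgeR adjusted p = 0.216) with library totals alone. SLC25A44, a carrier of branched-chain amino acids, fell in Trog on the TMM scale (log2 fold change -0.50 ± 0.20 SE, edgeR adjusted p = 0.0354) and was at 0.18 (edgeR adjusted p = 0.464) with library totals alone. Leaving out any TGFb library or any of Trog replicates 2 to 5 also ended that call of SLC25A44 (edgeR adjusted p 0.0528 to 0.0773). The glutamate carrier SLC25A18 had 1 read in all libraries and the ornithine carrier SLC25A2 had 0, and neither was tested.

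SLC25A20, the carnitine-acylcarnitine carrier that admits fatty acids for oxidation, rose in each drug group. It stood at 18.5, 18.3, 20.7, 18.4 and 17.8 CPM in FB and at 17.5, 19.3, 16.3, 19.3 and 16.0 CPM in TGFb. SLC25A20 stood at 30.4, 34.6, 32.3, 31.4 and 33.4 CPM in Trog and at 22.2, 23.3, 24.8, 20.2 and 21.1 CPM in TrogGW. UK stood at 36.7, 35.9, 33.1, 31.5 and 20 CPM. Trog and the UK libraries other than replicate 5 were above FB, TGFb and TrogGW. Against TGFb, SLC25A20 rose in Trog (log2 fold change 0.88 ± 0.12 SE, edgeR adjusted p = 5.83e-07), in TrogGW (log2 fold change 0.34 ± 0.12 SE, edgeR adjusted p = 0.013) and in UK (log2 fold change 0.83 ± 0.12 SE, edgeR adjusted p = 2.15e-06, and without replicate 5 0.96 ± 0.072 SE, adjusted p = 7.66e-13). With GW9662 added it was lower than with troglitazone alone (log2 fold change -0.54 ± 0.12 SE, edgeR adjusted p = 0.000475). TGFb against FB was not called, at -0.08 ± 0.12 (SE, edgeR adjusted p = 0.617). In UK against FB it was higher (log2 fold change 0.75 ± 0.12 SE, edgeR adjusted p = 6.36e-06, and without replicate 5 0.87 ± 0.071 SE, adjusted p = 2.27e-12).

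Among carriers of cofactors and nucleotides, SLC25A33 had its highest levels in Trog. SLC25A33, a carrier of pyrimidine nucleotides, stood at 10.9, 9.11, 11.8, 10.4 and 9.18 CPM in FB and at 4.61, 5.84, 7.50, 7.54 and 5.91 CPM in TGFb. It stood at 26.0, 30.5, 22.6, 26.0 and 27.2 CPM in Trog and at 20.5, 19.4, 16.1, 15.5 and 19.9 CPM in TrogGW. Its UK levels were 7.00, 7.65, 6.68, 5.6 and 14.6 CPM. Trog lay above TrogGW, and both lay above every other library. SLC25A33 fell with TGFb1 (log2 fold change -0.71 ± 0.19 SE, edgeR adjusted p = 0.0047) and rose in Trog (log2 fold change 2.08 ± 0.19 SE, edgeR adjusted p = 1.83e-09) and in TrogGW against TGFb (log2 fold change 1.54 ± 0.19 SE, edgeR adjusted p = 1.63e-07). TrogGW was lower than Trog (log2 fold change -0.53 ± 0.18 SE, edgeR adjusted p = 0.0197), a call lost with library totals alone (-0.37, edgeR adjusted p = 0.0611) and when any of TrogGW replicates 3 and 4 and Trog replicate 2 was left out (edgeR adjusted p 0.0503 to 0.054). UK was lower than Trog (log2 fold change -1.69 ± 0.19 SE, edgeR adjusted p = 5.32e-08, and without replicate 5 -1.98 ± 0.12 SE, adjusted p = 3.33e-15). Against FB, SLC25A33 was higher in Trog (log2 fold change 1.36 ± 0.19 SE, edgeR adjusted p = 9.12e-07) and in TrogGW (log2 fold change 0.83 ± 0.18 SE, edgeR adjusted p = 0.000366). SLC25A36, the other pyrimidine nucleotide carrier, was at 35.3 ± 2.42 CPM in FB, 52.5 ± 4.72 CPM in TGFb, 68.3 ± 3.14 CPM in Trog and 54.8 ± 4.09 CPM in TrogGW. Its UK libraries were at 35.3, 34.6, 28.8, 29.7 and 6.68 CPM, a fall of -0.95 ± 0.23 (SE, edgeR adjusted p = 0.00155) with all UK libraries and -0.71 ± 0.073 (adjusted p = 6.98e-10) without replicate 5 against TGFb, which a fit of only the 2 groups did not call (-0.94, edgeR adjusted p = 0.0672). Against FB, SLC25A36 was higher in Trog (log2 fold change 0.95 ± 0.23 SE, edgeR adjusted p = 0.00104).

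SLC25A32, a carrier of folate or flavin, stood at 7.35, 7.55, 7.32, 7.78 and 6.87 CPM in FB and at 6.0, 6.09, 6.43, 6.79 and 5.66 CPM in TGFb. It stood at 9.28, 9.19, 9.38, 8.54 and 9.21 CPM in Trog and at 12.8, 15.8, 14.0, 14.8 and 14.5 CPM in TrogGW. The UK libraries stood at 8.43, 9.76, 9.72, 8.30 and 3.29 CPM. TrogGW was above every other library and Trog above TGFb and FB. SLC25A32 rose in Trog (log2 fold change 0.56 ± 0.17 SE, edgeR adjusted p = 0.00512) and in TrogGW against TGFb (log2 fold change 1.21 ± 0.16 SE, edgeR adjusted p = 6.19e-07), and in TrogGW against Trog (log2 fold change 0.65 ± 0.16 SE, edgeR adjusted p = 0.00169). SLC25A16, a carrier linked to coenzyme A, stood at 25.4, 29.6, 29.7, 29.7 and 26.6 CPM in FB and at 33.8, 34.1, 31.7, 33.2 and 38.3 CPM in TGFb. It stood at 54.1, 53.4, 54.2, 50.8 and 53.0 CPM in Trog and at 46.7, 52.7, 54.1, 53.4 and 51.2 CPM in TrogGW. UK stood at 34.1, 33.7, 30.4, 29.1 and 13.5 CPM. Trog and TrogGW overlapped each other and lay above all other libraries. SLC25A16 rose in Trog (log2 fold change 0.64 ± 0.15 SE, edgeR adjusted p = 0.000682) and in TrogGW against TGFb (log2 fold change 0.59 ± 0.15 SE, edgeR adjusted p = 0.00111). Against FB it was higher in Trog (log2 fold change 0.91 ± 0.15 SE, edgeR adjusted p = 1.09e-05) and in TrogGW (log2 fold change 0.87 ± 0.15 SE, edgeR adjusted p = 1.59e-05).

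SLC25A17, a cofactor carrier of the peroxisome and not of the mitochondrion, was the member of this class that fell in both troglitazone groups. It stood at 57.9, 55.9, 54.8, 55.1 and 53.7 CPM in FB and at 71.3, 61.7, 61.7, 71.2 and 63.4 CPM in TGFb. SLC25A17 stood at 29.5, 29.7, 31.5, 28.2 and 30.5 CPM in Trog and at 29.6, 34.9, 32.1, 33.5 and 35.8 CPM in TrogGW. Its UK levels were 43.2, 39.9, 43.6, 37.5 and 71.1 CPM. Trog and TrogGW overlapped each other and lay under all other libraries, and UK replicate 5 lay in the TGFb range. SLC25A17 fell in Trog (log2 fold change -1.14 ± 0.12 SE, edgeR adjusted p = 1.79e-08) and in TrogGW against TGFb (log2 fold change -0.99 ± 0.12 SE, edgeR adjusted p = 1.31e-07), where library totals alone gave -0.14 (edgeR adjusted p = 0.196) in TrogGW. Against FB it was lower in Trog (log2 fold change -0.89 ± 0.12 SE, edgeR adjusted p = 8.15e-07). SLC25A42, a coenzyme A carrier, was rare and rose from 0.708 ± 0.118 CPM in TGFb to 2.95 ± 0.82 CPM in TrogGW, or 2.05 ± 0.34 (SE, edgeR adjusted p = 1.22e-05). Its UK libraries were at 1.09, 1.96, 1.95, 1.58 and 0.0915 CPM, with replicate 5 under every other library of the 5 groups. SLC25A26, the S-adenosylmethionine carrier, was highest in TrogGW at 18.6 ± 0.337 CPM, against 13.5 ± 0.663 CPM in TGFb, a rise of 0.47 ± 0.16 (SE, edgeR adjusted p = 0.0132).

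The 2 glutathione carriers took opposite courses in Trog on the TMM scale. SLC25A40 stood at 87.8, 89.3, 86.5, 93.1 and 88.3 CPM in FB and at 49.5, 49.3, 50.6, 56.9 and 50 CPM in TGFb. It stood at 105, 108, 107, 105 and 112 CPM in Trog and at 54.1, 45.8, 39.6, 40.7 and 45.3 CPM in TrogGW. UK lay at 39.0, 39.7, 35.5, 32.6 and 23.4 CPM. Trog was above FB, FB above the remaining groups, and the highest UK library reached the lowest TrogGW library. SLC25A40 fell with TGFb1 (log2 fold change -0.80 ± 0.11 SE, edgeR adjusted p = 1.64e-06) and rose in Trog against TGFb (log2 fold change 1.07 ± 0.11 SE, edgeR adjusted p = 5.46e-09). With GW9662 added it was lower than with troglitazone alone (log2 fold change -1.25 ± 0.11 SE, edgeR adjusted p = 1.4e-09), and TrogGW was not called against TGFb, at -0.18 ± 0.10 (SE, edgeR adjusted p = 0.122). UK was lower than Trog (log2 fold change -1.66 ± 0.11 SE, edgeR adjusted p = 4.89e-12, and without replicate 5 -1.55 ± 0.07 SE, adjusted p = 2.83e-18). Against FB it was lower in UK (log2 fold change -1.38 ± 0.11 SE, edgeR adjusted p = 9.82e-11, and without replicate 5 -1.28 ± 0.071 SE, adjusted p = 2.86e-16). SLC25A39, the paralog of SLC25A40, stood at 107 ± 6.97 CPM in FB, 109 ± 5.70 CPM in TGFb, 67.8 ± 4.39 CPM in Trog and 64.7 ± 5.53 CPM in TrogGW, and its UK libraries at 116, 118, 105, 102 and 204 CPM. SLC25A39 fell in Trog (log2 fold change -0.68 ± 0.13 SE, edgeR adjusted p = 9.16e-05) and in TrogGW against TGFb (log2 fold change -0.75 ± 0.13 SE, edgeR adjusted p = 2.41e-05). Library totals alone gave -0.001 (edgeR adjusted p = 0.993) and 0.10 (edgeR adjusted p = 0.396) for those falls of SLC25A39. UK against Trog gave 0.93 ± 0.13 (SE, edgeR adjusted p = 2.16e-06) with all UK libraries and 0.70 ± 0.063 (adjusted p = 2.45e-11) without replicate 5. SLC25A37, the iron carrier mitoferrin 1, fell with TGFb1 from 9.14 ± 1.01 CPM to 6.27 ± 0.4 CPM, or -0.54 ± 0.12 (SE, edgeR adjusted p = 0.00057), and rose in Trog to 11.2 ± 1.01 CPM, or 0.83 ± 0.11 (SE, edgeR adjusted p = 9.62e-07) against TGFb.

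**Figure D3:**
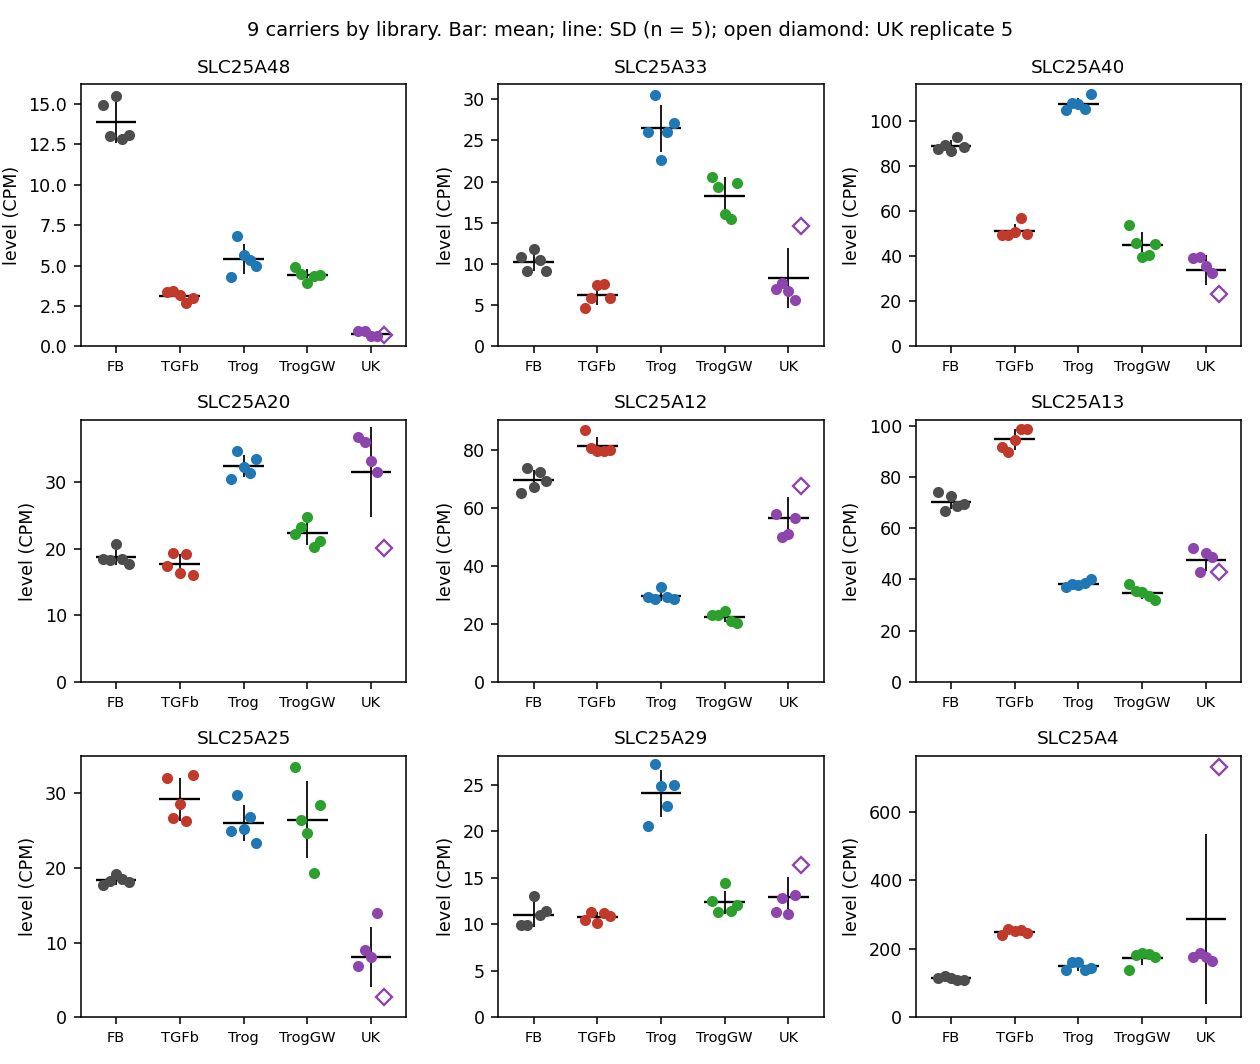
Level in CPM (linear axis from 0) of 9 carriers in each of the 25 libraries, by group, with the mean as a bar, the SD as a line (n = 5) and UK replicate 5 as an open diamond. SLC25A12 and SLC25A13 have their highest means in TGFb and their lowest in TrogGW, SLC25A40 is high in FB and Trog, and the SLC25A4 value of UK replicate 5 is 729.5 CPM.

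Members whose substrate is less settled included SLC25A48, which had the widest span after UCP2 when the rare SLC25A41 is left out, 17.8-fold between its highest and lowest group means. SLC25A48 stood at 14.9, 13.0, 15.5, 12.8 and 13.1 CPM in FB and at 3.40, 3.41, 3.16, 2.69 and 2.99 CPM in TGFb. It stood at 4.30, 6.81, 5.68, 5.33 and 4.97 CPM in Trog and at 4.94, 4.48, 3.91, 4.37 and 4.44 CPM in TrogGW. The UK libraries stood at 0.93, 0.98, 0.617, 0.632 and 0.732 CPM. FB was above and UK under all other groups, and UK replicate 5 lay within the range of the other UK libraries. SLC25A48 fell with TGFb1 (log2 fold change -2.14 ± 0.13 SE, edgeR adjusted p = 2.7e-12). It rose against TGFb in Trog (log2 fold change 0.79 ± 0.13 SE, edgeR adjusted p = 7.92e-06) and in TrogGW (log2 fold change 0.50 ± 0.13 SE, edgeR adjusted p = 0.00129). In UK it fell against TGFb (log2 fold change -2.00 ± 0.15 SE, edgeR adjusted p = 1.63e-10, and without replicate 5 -1.99 ± 0.19 SE, adjusted p = 1.15e-10). Against Trog the fall in UK was -2.79 ± 0.15 (SE, edgeR adjusted p = 1.21e-13) with all UK libraries and -2.78 ± 0.17 (adjusted p = 2.49e-15) without replicate 5. Against FB, SLC25A48 was lower in Trog (log2 fold change -1.35 ± 0.12 SE, edgeR adjusted p = 6.75e-10), in TrogGW (log2 fold change -1.64 ± 0.12 SE, edgeR adjusted p = 1.96e-11) and in UK (log2 fold change -4.14 ± 0.15 SE, edgeR adjusted p = 1.17e-16, and without replicate 5 -4.13 ± 0.16 SE, adjusted p = 2.85e-20).

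SLC25A43 stood at 16.0, 14.3, 15.4, 15.3 and 15.2 CPM in FB and at 22.7, 28.0, 22.2, 26.5 and 24.1 CPM in TGFb. It stood at 12.8, 13.1, 13.0, 12.3 and 13.6 CPM in Trog and at 9.61, 9.95, 8.89, 9.44 and 8.46 CPM in TrogGW. UK stood at 9.69, 9.76, 10.4, 11.9 and 6.13 CPM. TGFb was above all other groups without overlap. SLC25A43 rose with TGFb1 (log2 fold change 0.69 ± 0.11 SE, edgeR adjusted p = 2.43e-05). It fell in Trog (log2 fold change -0.93 ± 0.11 SE, edgeR adjusted p = 1.5e-07), where library totals alone gave -0.25 (edgeR adjusted p = 0.0987), and in TrogGW (log2 fold change -1.41 ± 0.11 SE, edgeR adjusted p = 1.16e-10). In UK it fell against TGFb (log2 fold change -1.36 ± 0.12 SE, edgeR adjusted p = 8.61e-10, and without replicate 5 -1.24 ± 0.08 SE, adjusted p = 1.99e-14). SLC25A46, an outer membrane protein of mitochondrial shape, fell in Trog (log2 fold change -0.39 ± 0.12 SE, edgeR adjusted p = 0.00796) and in TrogGW on the TMM scale (log2 fold change -0.55 ± 0.12 SE, edgeR adjusted p = 0.000332), whereas library totals alone gave 0.29 (edgeR adjusted p = 0.0813) and 0.30 (edgeR adjusted p = 0.0734). SLC25A47 fell in Trog (log2 fold change -1.80 ± 0.27 SE, edgeR adjusted p = 3.39e-06) and in TrogGW against TGFb (log2 fold change -1.85 ± 0.27 SE, edgeR adjusted p = 1.78e-06). In UK its fall was -1.42 ± 0.28 (SE, edgeR adjusted p = 0.000147) with all UK libraries and -1.84 ± 0.22 (adjusted p = 1.14e-08) without replicate 5. SLC25A45 had 7 reads in FB, 8 in TGFb, 21 in Trog, 76 in TrogGW and 1 in UK, and passed the filter only without UK replicate 5. SLC25A34 had 52 reads in the 25 libraries and SLC25A53 had 6, and neither was tested.

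UK replicate 5 was at least 2-fold above the mean of the other 4 UK libraries for 11 of the 35 tested members and at least 2-fold below it for 9, which is 57.1%, beside 56.2% of all tested genes. SLC25A4 was 4.13-fold and SLC25A3 3.11-fold above that mean, while SLC25A22 was 5.08-fold and SLC25A36 4.81-fold below it. Without it, UK had the lowest group mean for 13 of the 35 members and the highest for 3. The same was not counted over all tested genes, so these counts cannot be read as particular to the members. Falls that passed the test with and without UK replicate 5 included those of UCP2, SLC25A48, SLC25A25, SLC25A43 and SLC25A13 against TGFb.

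**Figure D4:**
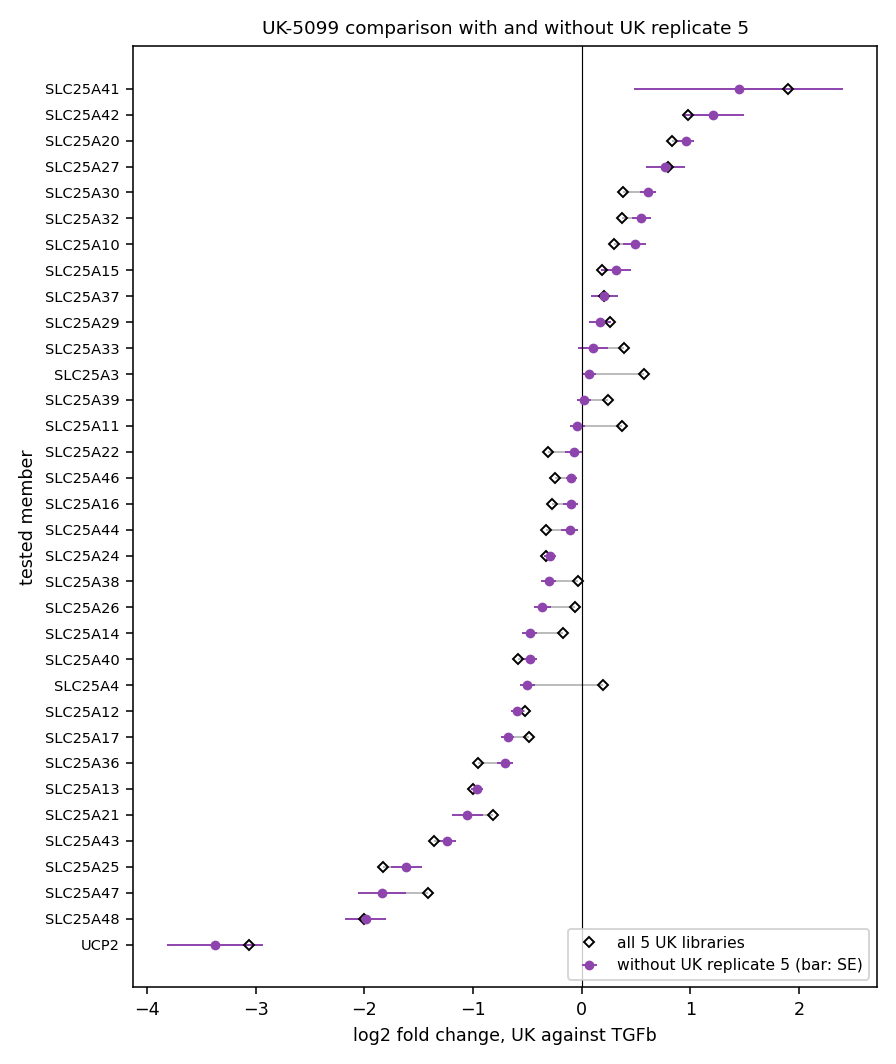
Log2 fold change in UK against TGFb (horizontal axis) of 34 of the 35 tested members (vertical axis) with all 5 UK libraries (open diamonds) and without UK replicate 5 (points, with the SE as a bar). SLC25A4 moves from 0.20 to -0.50 and SLC25A3 from 0.57 to 0.07, while SLC25A48 stays at -2.00 and -1.99.

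Against FB, 11 members rose and 13 fell in Trog (63.9% of all genes were called), 10 rose and 13 fell in TrogGW (69.7% of all genes), and 4 rose and 16 fell in UK (56.4% of all genes). Without UK replicate 5 these became 16 and 17 (81.4% of all genes), 14 and 17 (85.8%) and 7 and 20 (77.8%). These 3 comparisons share the FB libraries. On library totals alone the counts were 15 higher and 8 lower in Trog and 17 higher and 10 lower in TrogGW, and 3 higher and 19 lower in UK. SLC25A32 was higher in TrogGW than in FB, at 0.96 ± 0.16 (SE, edgeR adjusted p = 1.34e-05), and so was SLC25A30, at 0.68 ± 0.21 (SE, edgeR adjusted p = 0.00612).

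Partners of the carriers were followed with gene lists drawn up with earlier results of these data known, and the direction of several lists against TGFb turned with the scaling. Of 13 tested genes that import carriers into the inner membrane, 0 rose and 6 fell in Trog and 0 rose and 7 fell in TrogGW against TGFb, with medians of -0.43 and -0.60 beside 0.04 and 0.09 for all genes, of which 62.6% and 69.4% were called. On library totals alone 5 rose and 0 fell in Trog and 6 rose and 1 fell in TrogGW. The medians of the list were then 0.26 and 0.25 beside 0.73 and 0.94 for all genes. The change of scaling moves all genes nearly alike, so it could not change the place of the list relative to their median. TOMM40, the channel of the outer membrane translocase, fell with TGFb1 from 66.8 ± 3.8 CPM to 40.6 ± 1.91 CPM, or -0.72 ± 0.091 (SE, edgeR adjusted p = 7.55e-07). In UK 0 import genes rose and 1 fell against TGFb with all libraries, beside 50.5% of all genes called. Without replicate 5, 0 rose and 10 fell beside 70.9% of all genes, and on library totals alone 2 rose and 1 fell. Of 17 other mitochondrial transporters, 2 rose and 8 fell in Trog and 1 rose and 11 fell in TrogGW against TGFb (62.6% and 69.4% of all genes were called), while library totals alone gave 7 and 3 in each. In UK 2 rose and 6 fell beside 50.5% of all genes called (2 and 9 beside 70.9% without replicate 5, 6 and 3 on library totals alone). The outer membrane channel VDAC1 fell in all drug groups on the TMM scale, from 307 ± 16.8 CPM in TGFb to 129.6 ± 2.76 CPM in Trog, 157 ± 5.35 CPM in TrogGW and 157 ± 9.33 CPM in UK (160.2 ± 7.27 CPM without replicate 5). Its change against TGFb was -1.25 ± 0.058 (SE, edgeR adjusted p = 7.1e-15) in Trog and -0.97 ± 0.057 (SE, edgeR adjusted p = 3.94e-13) in TrogGW, where library totals alone gave -0.11 (edgeR adjusted p = 0.182). In UK it was -0.97 ± 0.057 (SE, edgeR adjusted p = 1.87e-12) with all UK libraries and -0.94 ± 0.048 (adjusted p = 6.78e-17) without replicate 5.

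Of the 11 partners of the malate-aspartate and citrate routes, 2 rose and 6 fell in Trog against TGFb and 2 rose and 5 fell in TrogGW (62.6% and 69.4% of all genes), while library totals alone gave 5 and 1, and 4 and 0. ACLY, which turns exported citrate into acetyl-CoA, rose with TGFb1, at 1.01 ± 0.091 (SE, edgeR adjusted p = 4.35e-09), and fell in Trog against TGFb, at -1.15 ± 0.092 (SE, edgeR adjusted p = 1.33e-10). GOT1, the cytosolic aspartate aminotransferase of the shuttle, fell in Trog on the TMM scale, at -0.43 ± 0.12 (SE, edgeR adjusted p = 0.00278), and rose on library totals alone, at 0.25 (edgeR adjusted p = 0.0273). Of the 7 partners of the carnitine shuttle, 2 rose and 2 fell in Trog and 2 rose and 3 fell in TrogGW against TGFb. In UK 4 rose and 1 fell against TGFb, and 6 and 1 without replicate 5. The shares of all genes called were 62.6%, 69.4% and 50.5%, and 70.9% in UK without replicate 5. Library totals alone gave 5 and 1 in Trog, 5 and 2 in TrogGW, and 5 and 1 in UK. CPT2, the carnitine palmitoyltransferase that acts in the matrix after SLC25A20, fell while SLC25A20 rose. CPT2 stood at 90.1 ± 3.88 CPM in TGFb, 29.3 ± 2.71 CPM in Trog, 18.6 ± 0.624 CPM in TrogGW and 34.7 ± 1.60 CPM in UK. Its change against TGFb was -1.62 ± 0.069 (SE, edgeR adjusted p = 1.62e-15) in Trog and -1.38 ± 0.068 (SE, edgeR adjusted p = 7.19e-14) with all UK libraries and -1.37 ± 0.06 (adjusted p = 1.75e-18) without replicate 5 in UK. CPT1A, which makes the acylcarnitines in the outer membrane, rose in Trog, at 1.47 ± 0.23 (SE, edgeR adjusted p = 5.26e-06).

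Of the 7 partners of folate and haem metabolism, 0 rose and 4 fell in UK against TGFb (0 and 5 without replicate 5, 1 and 4 on library totals alone). Of all genes, 50.5% were called (70.9% without replicate 5), so these counts alone are no result about the list. The median of the list was -1.37 (-1.13 without replicate 5) beside 0.09 (0.02) for all genes. SHMT2, the mitochondrial serine hydroxymethyltransferase, stood at 537 ± 19.9 CPM in TGFb, 250.2 ± 12.1 CPM in Trog, 129 ± 9.34 CPM in TrogGW and 118 ± 30.3 CPM in UK (107 ± 18.4 CPM without replicate 5). Its change in UK against TGFb was -2.19 ± 0.12 (SE, edgeR adjusted p = 2.6e-13) with all UK libraries and -2.33 ± 0.08 (adjusted p = 6.97e-21) without replicate 5. ALAS1, the enzyme that starts haem synthesis from glycine in the matrix, was higher in TrogGW than in Trog, at 1.09 ± 0.11 (SE, edgeR adjusted p = 1.94e-08), while the glycine carrier SLC25A38 was lower there. Of the 6 regulators of mitochondrial biogenesis tested, 3 rose and 0 fell in Trog and 3 rose and 1 fell in TrogGW against TGFb, beside 62.6% and 69.4% of all genes (6 and 0, and 5 and 0, on library totals alone). PPARGC1B, a coactivator of mitochondrial genes, rose in Trog, at 2.00 ± 0.26 (SE, edgeR adjusted p = 5e-07), and was lower in TrogGW than in Trog, at -1.88 ± 0.25 (SE, edgeR adjusted p = 1.46e-06).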

How the data were processed

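Polyadenylated RNA from 25 libraries of cultured cat corneal fibroblasts was sequenced from 200 ng of RNA with a stranded TruSeq kit, per the labels' protocols. The authors deposited raw counts per gene symbol for each library, with 13949 symbols in each table and 14.8 to 25.2 M counts per library. Salmon 1.5.2, featureCounts, Subread 2.0.1, STAR 2.7.9a and fastp 0.23.1 are listed, without roles, in the submitters' processing notes. Their settings, the genome build, the annotation and the strand setting are not given in the sources used here.

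All 25 libraries entered a single edgeR 4.0.16 quasi-likelihood fit (R 4.3.3, limma 3.58.1) with TMM factors and no replicate block. Genes needed a count of at least 10 in enough libraries and a total of 15, by edgeR's own filter. There were 9 comparisons, each with Benjamini-Hochberg adjustment over the 10699 tested genes and a threshold of 0.05. The SE is the log2 fold change divided by the square root of its F statistic. Counting intervals are exact at 95% and cover counting error only. No 2 libraries were alike within sampling noise, with a chi-square per degree of freedom of at least 3.29 within groups.

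The members and the gene lists were chosen with earlier results of these data known. In each comparison the named members were the 4 highest and 4 lowest log2 fold changes among called members whose higher group averaged 5 CPM or more, and UCP2. Members named in at least 2 comparisons are given library by library, and others are described by role, except 1 tested member whose values are not reported here. In the RefSeq table of assembly F.catus_Fca126_mat1.0, 41 of the 42 members were found by symbol. SLC25A1, SLC25A5, SLC25A6, SLC25A23, SLC25A28, SLC25A35, SLC25A51 and UCP3 were not analysed here.

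Alternatives were DESeq2 1.42.0, limma voom, RLE factors, library totals alone, no filter, a stricter filter, group medians, a fit of only the 2 groups compared, the replicate number as a block, leaving out each library and, added after seeing the data, library totals alone without UK replicate 5. On counts simulated for TGFb against FB over 10448 genes, the fit called 69 of 97 genes changed 2-fold, 43 of 97 changed 1.5-fold and 7 of 10254 unchanged genes. Figures were drawn with matplotlib 3.10.9.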

Additional observations from a re-analysis of the deposited data

Results flagged for a closer look

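Within each group of 5 libraries, the highest or lowest value of each tested member was compared with its nearest neighbour, and a gap above 0.71 of the whole range was taken as a library apart from the others. Chance gives about 1 in 20 such gaps. Of 175 sets of 5 libraries, 29 met this, 20 of them in UK replicate 5 and 9 elsewhere. In that library the members above the others included SLC25A11 at 204 CPM (others 72.4 to 83.6), SLC25A14 at 31.5 CPM (others 12.3 to 15), SLC25A17 at 71.1 CPM (others 37.5 to 43.6) and SLC25A21 at 4.21 CPM (others 1.94 to 2.16). It also held SLC25A26 at 23.2 CPM (others 9.41 to 11.6), SLC25A3 at 2313 CPM (others 663 to 834), SLC25A33 at 14.6 CPM (others 5.6 to 7.65) and SLC25A38 at 47.6 CPM (others 21.3 to 25.1). Further high values were SLC25A39 at 204 CPM (others 102 to 118), SLC25A4 at 729.5 CPM (others 166 to 188), SLC25A41 at 0.457 CPM (others 0.0547 to 0.154) and SLC25A47 at 2.10 CPM (others 0.438 to 0.857). The members below the others included SLC25A15 at 3.57 CPM (others 6.47 to 7.44), SLC25A16 at 13.5 CPM (others 29.1 to 34.1) and SLC25A22 at 2.84 CPM (others 12.5 to 16.0). Lower values were also found for SLC25A30 at 6.31 CPM (others 22.0 to 26.5), SLC25A32 at 3.29 CPM (others 8.30 to 9.76) and SLC25A36 at 6.68 CPM (others 28.8 to 35.3). The remaining low values were SLC25A44 at 5.40 CPM (others 18.7 to 21.2) and SLC25A46 at 21.2 CPM (others 39.1 to 44.4).

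Elsewhere the values that stood apart lay closer to the other libraries of their group. SLC25A12 in TGFb replicate 1 was 87.0 CPM, against 79.5 to 80.8 CPM in the others. SLC25A12 in Trog replicate 3 was 32.7 CPM, against 28.5 to 29.4 CPM in the others. SLC25A20 in FB replicate 3 was 20.7 CPM, against 17.8 to 18.5 CPM in the others. SLC25A3 in FB replicate 4 was 699 CPM, against 754 to 767 CPM in the others. SLC25A32 in Trog replicate 4 was 8.54 CPM, against 9.19 to 9.38 CPM in the others. SLC25A37 in TrogGW replicate 1 was 10.4 CPM, against 7.36 to 8.04 CPM in the others. SLC25A4 in TrogGW replicate 1 was 137 CPM, against 176 to 188 CPM in the others. SLC25A40 in TGFb replicate 4 was 56.9 CPM, against 49.3 to 50.6 CPM in the others. SLC25A41 in FB replicate 3 was 0.157 CPM, against 0 to 0.0427 CPM in the others. SLC25A41 has few reads, so its values rest on single counts.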

How the results depend on the processing

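With all libraries 15 members were called in TGFb against FB. Library totals alone gave 23, and a fit of only the 2 groups, which holds no UK library, gave 24. Leaving out 1 library at a time gave 13 to 24 in TGFb against FB and 15 to 27 in TrogGW against Trog, the highest being without UK replicate 5 in both. Over the other 24 libraries these ranges were 13 to 15 and 15 to 19. The other 7 comparisons stayed within 1.5 times their count in every setting of the original list. Library totals alone without UK replicate 5, a setting chosen after seeing the data, gave 29 in TGFb against FB, 35 in TrogGW against TGFb and 30 in UK against TGFb. DESeq2 called 16 to 26 members per comparison and limma voom 15 to 24. Except without UK replicate 5, the shares of all genes called were not computed for these alternatives, so their counts are no result about the members. Limma voom moved the median of all genes by -0.101 in UK against TGFb and by -0.118 in UK against FB on the log2 scale.

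Of the 73 pairs of a named member and a comparison, 1 changed sign, SLC25A4 in UK against Trog, at -0.16 with library totals alone without UK replicate 5. All kept their side of the threshold with DESeq2, RLE factors, no filter and the stricter filter. With library totals alone 67 did, 5 lost their call and UCP2 in TrogGW against TGFb gained one. Limma voom, the replicate block and leaving out UK replicate 5 each ended 1 call, that of SLC25A3 in UK against TGFb. The fit of only the 2 groups ended 2 calls and left 68 pairs the same. It did not test UCP2 in Trog or UK against TGFb or in UK against Trog, where UCP2 failed the filter on low counts. Group medians in place of means moved 4 values by more than the spread between libraries. Leaving out another library kept 1737, ended 14 and added 1, and the values stand beside the members in the report. The cause of these changes was not tested.

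The replicate numbers did not pair the libraries. Deviations of libraries with the same number correlated over 0.1 in 6 of 50 pairs (-0.187 to 0.328), and 5 of 25 libraries correlated best with one of their own number. With the replicate block the members called were 14 in TGFb against FB, 25, 21 and 16 in Trog, TrogGW and UK against TGFb, 17 in TrogGW against Trog, 23 in UK against Trog, and 23, 23 and 20 in Trog, TrogGW and UK against FB. The shares of all genes called with the block were not computed either. Low counts limit UCP2 in UK, SLC25A41, SLC25A45, SLC25A34, SLC25A53 and UCP1.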

Other observations

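The summed level of all 42 members, which is not divided by gene length and so leans on long and abundant messages, was 1817 ± 39.6 CPM in FB, 1872 ± 69.0 CPM in TGFb, 1564 ± 61.0 CPM in Trog and 1232 ± 15.1 CPM in TrogGW (SD, n = 5). In UK it was 2115 ± 1020 CPM with all 5 libraries and 1658 ± 100 CPM without replicate 5 (SD, n = 4). SLC25A3 and SLC25A4 together made up 46.2% to 48.3% of that sum in FB, 50.5% to 52.4% in TGFb, 41.1% to 44% in Trog and 37.7% to 39% in TrogGW. In UK their share was 53.8% to 57.1% in replicates 1 to 4 and 77.2% in replicate 5.

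Without UK replicate 5, FB had the highest group mean for 10 of the 35 members tested in the full fit, TrogGW for 8, TGFb and Trog for 7 each and UK for 3. UK had the lowest mean for 13, TGFb for 9, TrogGW for 7 and FB and Trog for 3 each. The same was not counted over all tested genes.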
